A study of Mus musculus with 6 samples.

Results

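The interleukin-1 (IL-1) family genes described here are 10 members fixed by name, and all 10 were found among the 16538 genes of the table. They comprise 4 signaling receptor chains (Il1rl2, Il1r1, Il1rl1 and Il18r1), the decoy receptor Il1r2, the shared co-receptor Il1rap, the ligands Il1b, Il18 and Il33, and the receptor antagonist Il1rn. Their transcripts were measured by RNA-Seq in inguinal white adipose tissue (iWAT), the subcutaneous fat depot of the mouse groin, after cold acclimation. The control group held 3 samples from fl/fl mice, which carry the floxed Nrg4 allele without Cre and are labelled wt. The AKO group held 3 samples from mice in which Nrg4, a hormone secreted by fat, is deleted by Cre under the adiponectin promoter, which acts in adipocytes and leaves Nrg4 in place in the other cells of the depot. Both groups were kept at 8°C, for 10 days by the sample labels and for a slightly longer time by the study's text, and the RNA of 2 mice was pooled in each sample. The sources used here do not state the age of these mice.

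Cytokines of the IL-1 family are released by stressed, dying or activated cells and act through receptors with an extracellular immunoglobulin-like part and an intracellular TIR domain. A ligand is first bound by its own receptor chain, and a co-receptor then joins and passes the signal through MYD88 and IRAK kinases to NF-κB. The family is kept in check by an antagonist that occupies the receptor, by decoy receptors without a TIR domain, and by binding proteins. In adipose tissue, IL-33 from stromal cells is known for maintaining regulatory T cells and group 2 innate lymphoid cells, and IL-1β from macrophages is known for impairing insulin action and thermogenic gene expression in adipocytes. The IL-36 receptor encoded by Il1rl2 is best known from skin and other barrier tissues.

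Depth was similar in all libraries, from 17570335 to 18373707 reads on the listed genes. The targeted gene Nrg4, counted over all its exons and not only those deleted, had 3092 to 3128 normalized counts in control and 2577 to 2691 in AKO (log2 fold change -0.24, adjusted p = 0.298 from limma), so the groups did not overlap but most of the signal remained. By qPCR, the study reports almost no Nrg4 mRNA in AKO iWAT. The whole-gene count is thus no measure of how complete the deletion was. Fabp4 and Cidec led the 6 adipocyte markers, which summed to 308019 to 337357 normalized counts in control and 277583 to 308292 in AKO. The summed level of 7 beige adipocyte markers, led by Ucp1 and Cidea, was 27631 to 39747 normalized counts in control and 11372 to 14847 in AKO. Several libraries stood apart in markers of other cells. Control replicate 1 and AKO replicate 2 had 586 and 708 normalized counts summed over 5 B cell markers, led by Cd79a and Cd79b, against 39.5 to 59.1 in the other 4 libraries. Skeletal muscle markers, led by Acta1 and Myh4, summed to 118, 19375 and 10966 normalized counts in control and to 14177, 53937 and 83843 in AKO. The groups overlapped, with control replicate 1 far below the rest. Of the 8 muscle markers, 7 had a log2 fold change above 0 (median 3.94, lowest adjusted p = 0.564 from limma). Epithelial markers, led by Krt18 and Cdh1, were lowest in control replicate 2 (24.7) and highest in AKO replicate 2 (1599). These are bulk samples, in which fewer cells of a type and less RNA per cell cannot be told apart.

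The genotypes were compared with limma on the log2(normalized count + 1) scale, over the 13855 genes whose mean reached 10 normalized counts. A fold change on this scale understates the change of genes with few reads. A gene was called where its adjusted p (Benjamini-Hochberg) was below 0.05. Of the 13855 genes, 2 were called (0.0144%), 1 of them higher in AKO (0.00722%), and neither is among the 9 family members tested. Before adjustment, 2 of the 9 (Il1rl2 and Il1r2) had a p under 0.05 with limma, both higher in AKO, and 5 did with edgeR, where 9.27% of all genes did. With limma, 9.10% of all genes tested passed that limit, and 4.41% did so with a higher level in AKO. With DESeq2 on whole reads, 0.839% of genes were called and none of the 10 members, 2 of which had an unadjusted p under 0.05 (6.25% of all genes). Each of the 9 members tested had a log2 fold change above 0, as did 51.9% of all genes tested, and their median was 0.33 against 0.01 over all genes tested. Il1b was left out of the test because of its low level. Il1rn passed the filter on low values only through its AKO samples and so had to differ. Without it, 8 of 8 members tested were above 0, with a median of 0.28, and 4 of 8 had an unadjusted p under 0.05 with edgeR. Without Il1rl2 as well, which the study already names as higher, 3 of 7 did with edgeR.

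**Figure D1:**
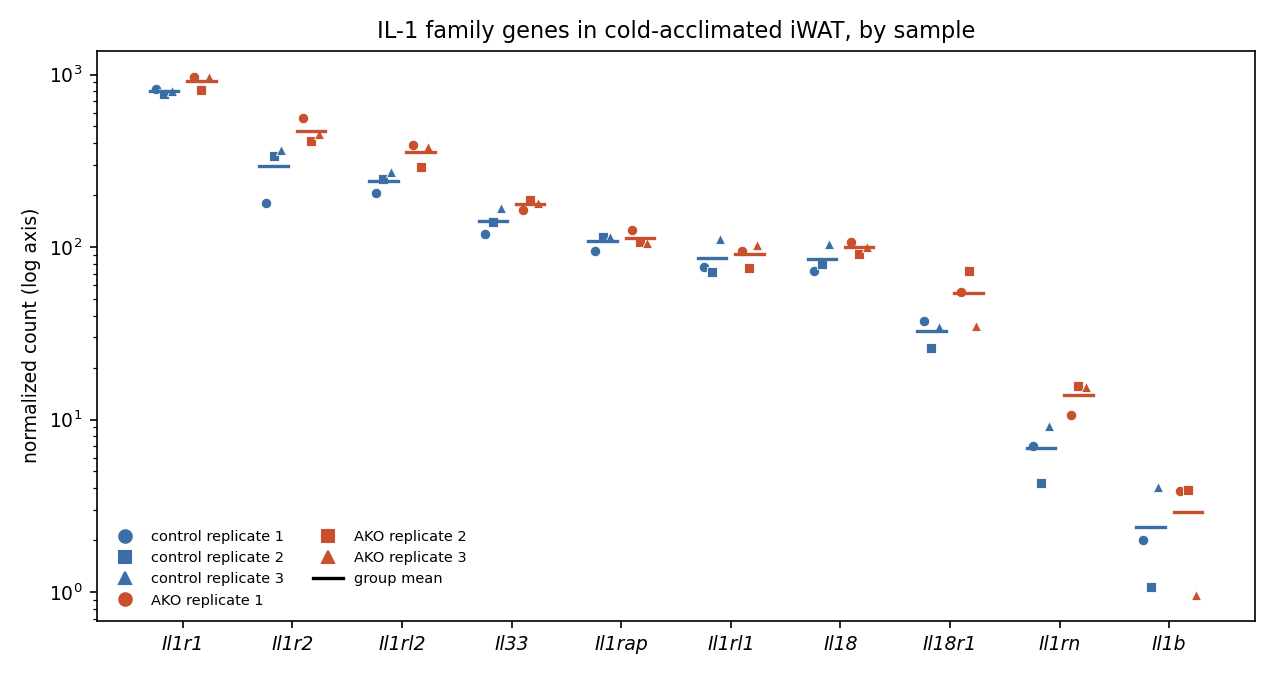
Normalized count (log axis) of each of the 10 IL-1 family genes in 3 control and 3 AKO samples; points are samples and bars are group means. The AKO samples of Il1rl2, Il1r2 and Il1rn all lie above the control samples, and the groups overlap for the other 7 genes.

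Il1rl2 encodes the ligand-binding chain of the receptor for the IL-36 cytokines. The gene (ENSMUSG00000070942) lies on the plus strand of chromosome 1 of GRCm38 from 40324610 to 40367562, and no exonic base of it is shared with another annotated gene. Control samples held 206, 248 and 273 normalized counts of Il1rl2, and AKO samples held 393, 293 and 382. All AKO values were thus above all control values, with the smallest gap between control replicate 3 and AKO replicate 2. The AKO mean of 356 ± 54.8 was 1.47 times the control mean of 243 ± 34.2 (SD, n = 3 each). On the log2 scale the difference was 0.55 (95% confidence interval 0.21 to 0.89), and the adjusted p was 0.374 with limma and 0.0968 with DESeq2. Of all genes tested, 3.84% had a log2 fold change at least as large. Il1rl2 is among the genes that the study names as higher in AKO iWAT from these same samples, so the separation of its groups is no independent evidence of a difference.

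The bases just upstream of Il1rl2 and of its neighbor Il1r1 are shown because these genes lie side by side in the same orientation and had different fold changes (0.55 and 0.20 on the log2 scale). Both are the 250 bases before a RefSeq transcription start on the plus strand of GRCm38.p6, 5′ to 3′, and neither holds an annotated exon. The Il1rl2 window is chr1:40324339-40324588, and the Il1r1 window is chr1:40224830-40225079. Capitals mark matches to TTGCNNAA, a core of C/EBP sites, and to TATAAA, each searched on both strands.
Il1rl2: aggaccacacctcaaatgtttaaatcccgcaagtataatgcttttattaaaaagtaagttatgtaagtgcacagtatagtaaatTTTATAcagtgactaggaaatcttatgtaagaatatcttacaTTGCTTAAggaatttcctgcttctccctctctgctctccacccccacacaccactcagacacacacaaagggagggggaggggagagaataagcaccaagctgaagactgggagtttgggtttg
Il1r1: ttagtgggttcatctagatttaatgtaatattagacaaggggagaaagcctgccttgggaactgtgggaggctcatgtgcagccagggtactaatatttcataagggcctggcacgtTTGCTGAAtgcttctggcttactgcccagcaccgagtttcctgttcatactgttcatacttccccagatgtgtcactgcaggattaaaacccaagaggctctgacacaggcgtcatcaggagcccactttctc

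The window of Il1rl2 holds a TATAAA match on the minus strand that begins 166 bases before the start, and a TTGCNNAA match 124 bases before it. The window of Il1r1 holds a TTGCNNAA match 133 bases before the start. Such matches are common, with TTGCNNAA in 9.56% and TATAAA in 12.4% of the 32851 promoter windows of the same length. Among the 17 windows of the 10 members, TTGCNNAA was found in 4, TATAAA in 5, the AP-1 motif TGANTCA in 1 (a window of Il1rn) and the NF-κB motif in 1 (a second window of Il1r1). The shares of these last 2 motifs over all windows were 6.75% and 3.90%. The windows are 41.2% (Il1rl2) and 48.4% (Il1r1) G and C. A match describes the letters of the window and does not show binding.

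Il1r2 encodes the decoy receptor, which binds IL-1 without passing on a signal. It lies at the start of the same cluster, on chromosome 1 from 40074079 to 40125231. Control samples held 181, 336 and 364 normalized counts, and AKO samples held 558, 409 and 450. All 3 AKO samples were above the control samples, and control replicate 1 was far below the other controls. The AKO mean of 472 ± 76.9 stood 1.61 times as high as the control mean of 293 ± 98.7 (SD, n = 3 each). Its log2 fold change was 0.74 (95% confidence interval 0.15 to 1.33; adjusted p = 0.492 with limma, 0.126 with DESeq2), and 0.42 without control replicate 1.

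Il1r1, the signaling receptor for IL-1α and IL-1β, had normalized counts of 825, 770 and 807 in control against 972, 815 and 972 in AKO. AKO replicates 1 and 3 lay above all controls, and AKO replicate 2 fell among them. Its log2 fold change was 0.20 (95% confidence interval -0.00195 to 0.39, adjusted p = 0.55 from limma). Its SD in control (28.0) was no larger than the counting error at that mean (28.3), so that the spread among controls understates the error.

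The co-receptor Il1rap pairs with the receptors for IL-1, IL-33 and IL-36 alike. Normalized counts of Il1rap were 94.3, 114 and 115 in control against 126, 107 and 105 in AKO. The groups overlapped, and the log2 fold change was 0.07 (95% confidence interval -0.25 to 0.39, adjusted p = 0.930 from limma). Of its exonic bases, 4.86% are shared with a gene on the opposite strand.

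Il1rl1, which encodes the IL-33 receptor ST2 in a membrane and a soluble form, had normalized counts of 76.3, 72.1 and 111 in control against 95.1, 75.2 and 102 in AKO. The AKO samples lay within the range of the controls. For Il1rl1 the log2 fold change was 0.09 (95% confidence interval -0.39 to 0.56, adjusted p = 0.940 from limma), and the counts per gene do not separate the soluble from the membrane form.

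Il18r1, the ligand-binding chain of the IL-18 receptor, had normalized counts of 37.1, 25.8 and 34.6 in control against 54.7, 72.2 and 34.7 in AKO. Within the AKO group, replicate 2 was the highest and replicate 3 fell between the controls. With 0.67 on the log2 scale, the fold change of Il18r1 lay between those of Il1rl2 and Il1r2, and its interval was wide (95% confidence interval -0.01 to 1.35, adjusted p = 0.552 from limma). Without AKO replicate 2 it was 0.43, below the 0.68 of Il1rl2 in the same fit. The highest sample, AKO replicate 2, is also the library with the most counts of 8 T and NK cell markers, 957 against 224 to 591 in the others. The part of these cells in the level of Il18r1 was not tested.

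Of the ligands, Il33, the nuclear alarmin of stromal cells, had normalized counts of 118, 140 and 169 in control against 163, 188 and 180.3 in AKO. Control replicate 3 was above AKO replicate 1, so the groups overlapped by that pair alone. For Il33 the log2 fold change was 0.33 (95% confidence interval -0.01 to 0.67, adjusted p = 0.559 from limma). Leaving out 1 sample gave 0.20 (without control replicate 1) to 0.46 (without control replicate 3). Without both libraries with many B cell marker counts it was 0.16.

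Il18, which is stored as an inactive precursor and cleaved by caspase-1, had normalized counts of 72.3, 79.6 and 104 in control against 108, 90.8 and 100.3 in AKO. The groups overlapped, and the log2 fold change was 0.24 (95% confidence interval -0.15 to 0.62, adjusted p = 0.730 from limma). With 1 sample left out, it ranged from 0.13 (without control replicate 1) to 0.38 (without control replicate 3). The SD among AKO samples was smaller than the counting error for both ligands, at 8.40 against 9.98 for Il18 and 12.8 against 13.3 for Il33.

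Il1b, the inflammasome-processed cytokine for which the family is best known, was hardly detected, with 2, 1 and 4 reads in control against 4, 4 and 1 in AKO. DESeq2 did not call Il1b (adjusted p = 0.999), and with so few reads a difference was neither shown nor excluded. The antagonist Il1rn, which blocks the IL-1 receptor, had 7, 4 and 9 reads in control against 11, 16 and 16 in AKO. The AKO reads of Il1rn thus all exceeded the control reads. Its means were 6.82 ± 2.43 (SD, n = 3) and 13.9 ± 2.87 normalized counts (SD, n = 3), and these SDs are below the counting errors of 2.61 and 3.72. Its log2 fold change was 0.96 (95% confidence interval -0.0031 to 1.92, adjusted p = 0.55 from limma).

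**Figure D2:**
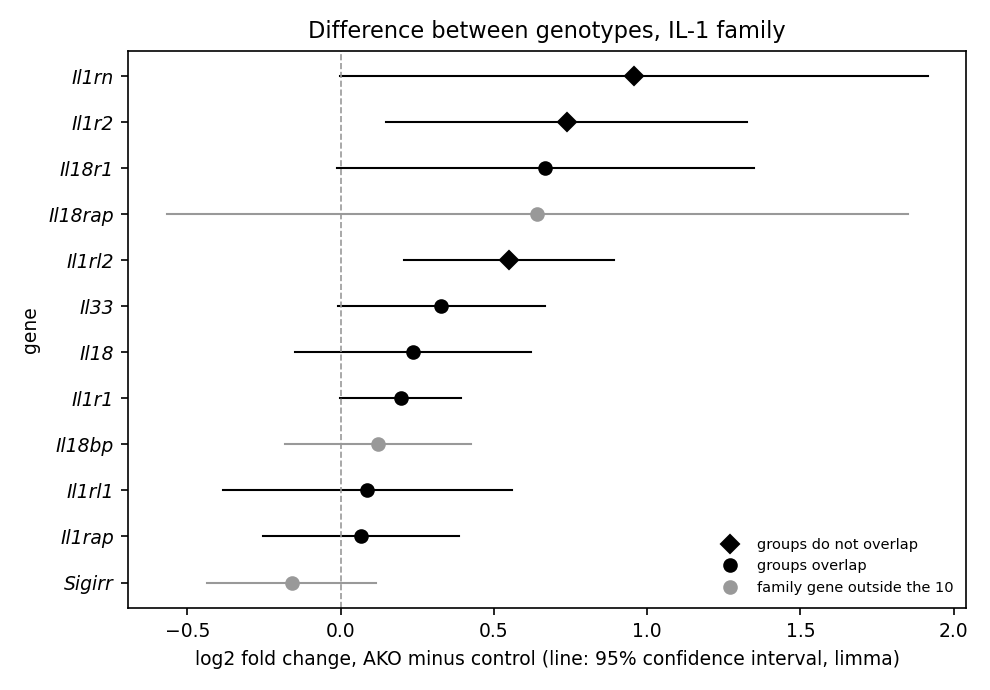
Log2 fold change of AKO minus control with the 95% confidence interval from limma (x axis) for the 9 members tested (black) and 3 further family genes (gray). Diamonds mark Il1rn, Il1r2 and Il1rl2, whose groups did not overlap. In this fit Il1rl2, at 0.55, lies below Il1r2 at 0.74 and Il1rn at 0.96. The order changed without control replicate 1 (Il1r2 0.42, Il1rl2 0.44) and with a pseudocount of 10 (Il1rn 0.51, Il1rl2 0.53).

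The groups thus did not overlap for 3 of the 9 members tested, Il1rl2, Il1r2 and Il1rn, all higher in AKO. Over all genes tested, 14.5% had groups that did not overlap, and 6.14% were higher in AKO. The upward separation of Il1rn was favored by the filter, and with at least 10 normalized counts required in every sample the count was 2. Without Il1rn and Il1rl2, which the study already names as higher, it was 1 of 7, namely Il1r2. For Il1rl2 and Il1r2, the 2-sided exact permutation test gave p = 0.1, the smallest that 3 samples against 3 allow. Leaving out control replicate 1, or both libraries with many B cell marker counts, raised the count of separated members to 5 of 9, by adding Il1r1 and Il18r1. Leaving out control replicate 3 also gave 5 of 9, by adding Il18 and Il33. With fewer samples groups separate more easily, and 28.9%, 42.3% and 25.8% of all genes tested then did so.

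Levels per kilobase of exon (normalized counts divided by the length of all annotated exons) rank the members within a sample type. In control iWAT, Il1r2 was highest at 154 ± 51.7 per kilobase (SD, n = 3), and Il1r1 followed at 126 ± 4.40 (SD, n = 3), with overlapping samples. Below them came Il18 at 82.6 ± 16.0, Il33 at 49.3 ± 8.75 and Il1rl2 at 35.6 ± 5.03 per kilobase (SD, n = 3 each), and none of these overlapped its neighbor in the order. The decoy was thus among the most abundant transcripts of the family together with the signaling IL-1 receptor, and the IL-36 receptor stood in the middle.

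Il1rl1 (12.5 ± 3.08 per kilobase), the co-receptor Il1rap (9.48 ± 1.02) and Il18r1 (6.75 ± 1.23) came next, again without overlap between neighbors (SD, n = 3 each). Il1b (1.25 ± 0.803) and Il1rn (1.23 ± 0.439) were at the bottom and could not be told apart (SD, n = 3 each). In AKO iWAT the first 6 kept these places by their means, while Il18r1 (11.2 ± 3.90) stood above Il1rap (9.93 ± 0.999), and Il1rn (2.51 ± 0.518) above Il1b (1.52 ± 0.881), per kilobase (SD, n = 3 each). The samples overlapped in both of these changes of place. AKO samples also overlapped between Il33 and Il1rl2 and between Il1rl1 and Il18r1. The order depends on which isoforms are made, because all annotated exons enter the length.

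To contrast Il1rl2 with the rest of the family, the difference log2(Il1rl2 + 1) minus log2(member + 1) was taken within each sample for the 9 other members. This difference does not depend on the scaling of a library beyond the pseudocount. Against Il1r1 it was -2.00, -1.63 and -1.56 in control against -1.30, -1.47 and -1.35 in AKO. Every AKO sample thus held more Il1rl2 relative to Il1r1 than any control, with a shift of 0.35 between the means.

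Against the co-receptor Il1rap the shift was 0.48, from 1.16 ± 0.07 to 1.64 ± 0.21 (SD, n = 3 each). Against the IL-33 receptor Il1rl1 it was 0.46, with a highest control value of 1.77 and a lowest AKO value of 1.89. Against Il18 it was 0.31, from 1.51 ± 0.12 to 1.82 ± 0.12 (SD, n = 3 each). In these 4 of 9 pairs the groups did not overlap, all with a higher difference in AKO. Taken against every other gene tested in place of a family member, Il1rl2 separated in 58.0% of cases, and in 57.8% with a higher difference in AKO, so the count of family pairs is not particular to the family. All pairs share the values of Il1rl2, whose own groups did not overlap. The 2-sided exact permutation p was 0.1 for each, the smallest possible, and 0.225 after Benjamini-Hochberg adjustment over the 9 pairs, so that with 3 samples a group no pair could pass a threshold of 0.05, whatever its values.

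The other 5 pairs overlapped. Relative to the decoy Il1r2, Il1rl2 shifted by -0.19 (exact permutation p = 0.5). The shifts were -0.12 against Il18r1, -0.41 against Il1rn, 0.36 against Il1b and 0.22 against Il33, with exact permutation p-values from 0.4 to 0.9.

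**Figure D3:**
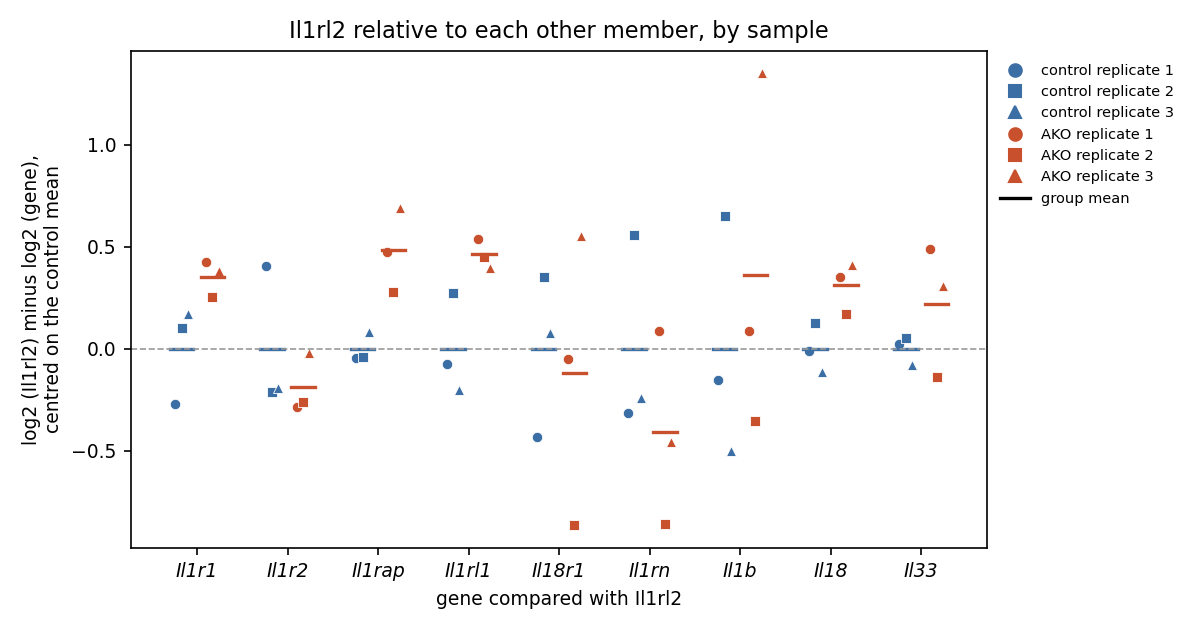
Log2 level of Il1rl2 minus that of each other member in every sample, with the control mean of each pair set to 0 (y axis); bars are group means. All AKO samples lie above all control samples for Il1r1, Il1rap, Il1rl1 and Il18, and the groups overlap for Il1r2, Il18r1, Il1rn, Il1b and Il33.

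Of the members, 5 lie in a tandem cluster of 6 receptor genes that spans 477.6 kb of chromosome 1 (40074079 to 40551705), all on the plus strand in the order Il1r2, Il1r1, Il1rl2, Il1rl1, Il18r1 and Il18rap. The log2 fold changes along it were 0.74, 0.20, 0.55, 0.09, 0.67 and 0.64. Their confidence intervals all overlapped one another, and differences between neighboring genes of the cluster other than Il1rl2 were not tested. On the near side, Map4k4 had a log2 fold change of -0.07 (adjusted p = 0.870 from limma). On the far side, Slc9a2 had 1.06 at a mean of only 11.9 normalized counts (adjusted p = 0.605 from limma), and Mfsd9 had -0.13 (adjusted p = 0.902).

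**Figure D4:**
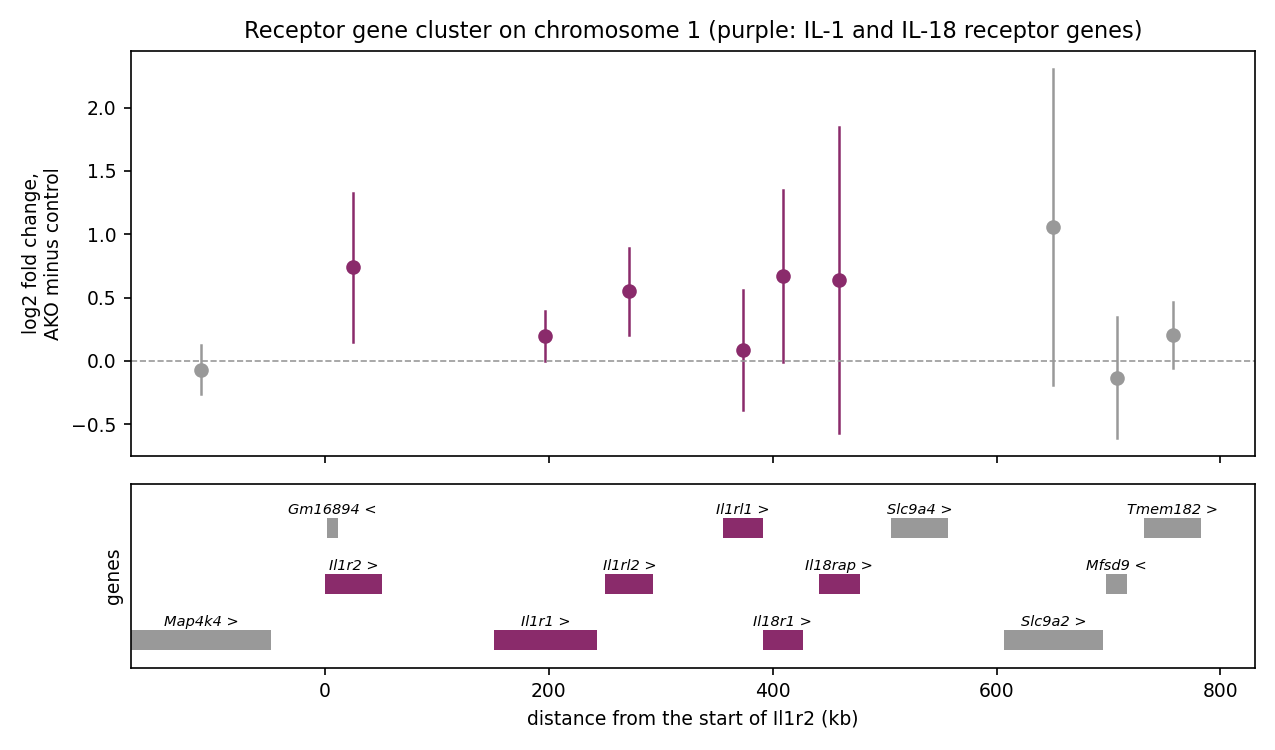
Log2 fold change of AKO minus control with the 95% confidence interval from limma (upper panel) against distance from the start of Il1r2 in kb; the lower panel shows the genes to scale, with > for the plus strand and < for the minus strand. The 6 receptor genes (purple) range from 0.09 (Il1rl1) to 0.74 (Il1r2), and genes with a mean under 10 normalized counts have no point.

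Of the family genes outside the 10, 4 were measured. The accessory chain of the IL-18 receptor, Il18rap, had 8.60 to 41.7 normalized counts in control and 32.8 to 40.3 in AKO (log2 fold change 0.64, adjusted p = 0.775 from limma), and control replicate 2 alone was low. The IL-18 antagonist Il18bp had 160 to 200.3 in control and 185 to 228 in AKO (log2 fold change 0.12, adjusted p = 0.840 from limma). The inhibitory receptor Sigirr had 135 to 163 in control and 124 to 141 in AKO (log2 fold change -0.16, adjusted p = 0.747 from limma). Il1a had at most 3 reads in any sample and 0 in 2 of them, and 0 reads still allow up to 3. The IL-36 ligands, searched for under the names Il1f6, Il1f8 and Il1f9, were not among the 16538 genes. The receptor Il1rl2 is thus described without them.

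Beyond the family, 90 pathway genes had been listed, of which 71 were tested. limma and edgeR called none of them. With limma, 6 of the 71 had an unadjusted p under 0.05 (4 higher and 2 lower in AKO), as did 9.10% of all genes tested. DESeq2 called 1 pathway gene, and 0.839% of all genes. The counts above 0 given below stand beside 51.9% of all genes tested. The 29 genes of receptor signaling had a median log2 fold change of -0.0012, with 14 above 0 and 15 below. The most abundant were the kinase Irak1 (-0.05) and the adaptor Tab2 (-0.01), and the largest log2 fold changes were those of the NF-κB subunit Rel (-0.34) and the adaptor Tifa (0.26).

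The 14 tested genes of cytokine processing had a median log2 fold change of 0.15, 11 of them above 0. The inflammasome kinase Nek7 (0.09) and Casp8 (-0.12) were the most abundant, and the sensor Nlrp3 (0.47) and the neutrophil elastase gene Elane (-0.45) had the largest values. Ctss, which encodes a cathepsin of antigen-presenting cells that cleaves IL-36γ, was the only pathway gene called by DESeq2 (adjusted p = 0.0327) and is named for that call, after its value was seen. Normalized counts of Ctss were 644, 607 and 733 in control against 850, 874 and 904 in AKO. Its difference was 0.41 on the log2 scale (adjusted p = 0.263 from limma). The genotypes did not overlap for Ctss, and its AKO samples were close together. Casp8 and Elane did not overlap either, both lower in AKO. Over all genes tested, 14.5% had groups that did not overlap.

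The 18 tested target genes of the pathway had a median log2 fold change of 0.15, with 16 above 0. The abundant Steap4 (-0.14) and Hp (0.02) were near 0. The largest log2 fold changes were those of Ptgs2 (0.93), the inducible cyclooxygenase, and the chemokine Ccl7 (0.60), with adjusted p-values of 0.584 and 0.564 from limma. Of 10 tested genes of the IL-33 axis, 8 were above 0, with a median of 0.23. Retnla (0.29) and the eotaxin Ccl11 (0.26) were the most abundant. Gata3 had 0.79 and varied from 23.7 to 321 normalized counts between samples, and the IL-25 receptor gene Il17rb had -0.60 (adjusted p = 0.451 from limma). Normalized counts of Il17rb were 69.2, 79.6 and 64.0 in control against 37.5, 51.7 and 51.1 in AKO, with no overlap.

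Markers of other cells had higher values in some of the same samples. All 8 macrophage markers, led by Lyz2 and C1qa, had log2 fold changes between 0.33 and 0.39, and none was called by limma or DESeq2. Their summed level was 10595 to 14990 normalized counts in control and 13033 to 17930 in AKO. All 8 progenitor markers, led by Dpt and Col15a1, were above 0 as well (1 of them called by DESeq2), with sums of 21050 to 26334 in control and 23536 to 31338 in AKO. Like Il1rl2 and Il1r2, both sums were lowest in control replicate 1 among controls and in AKO replicate 2 within the AKO group, and both overlapped between the genotypes. Dendritic cell markers summed to 500.1 to 670 normalized counts in control and 545 to 758 in AKO. No marker of these 3 lists was at 0 in any library, and their part in the levels of the IL-1 family genes was not tested.

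**Figure D5:**
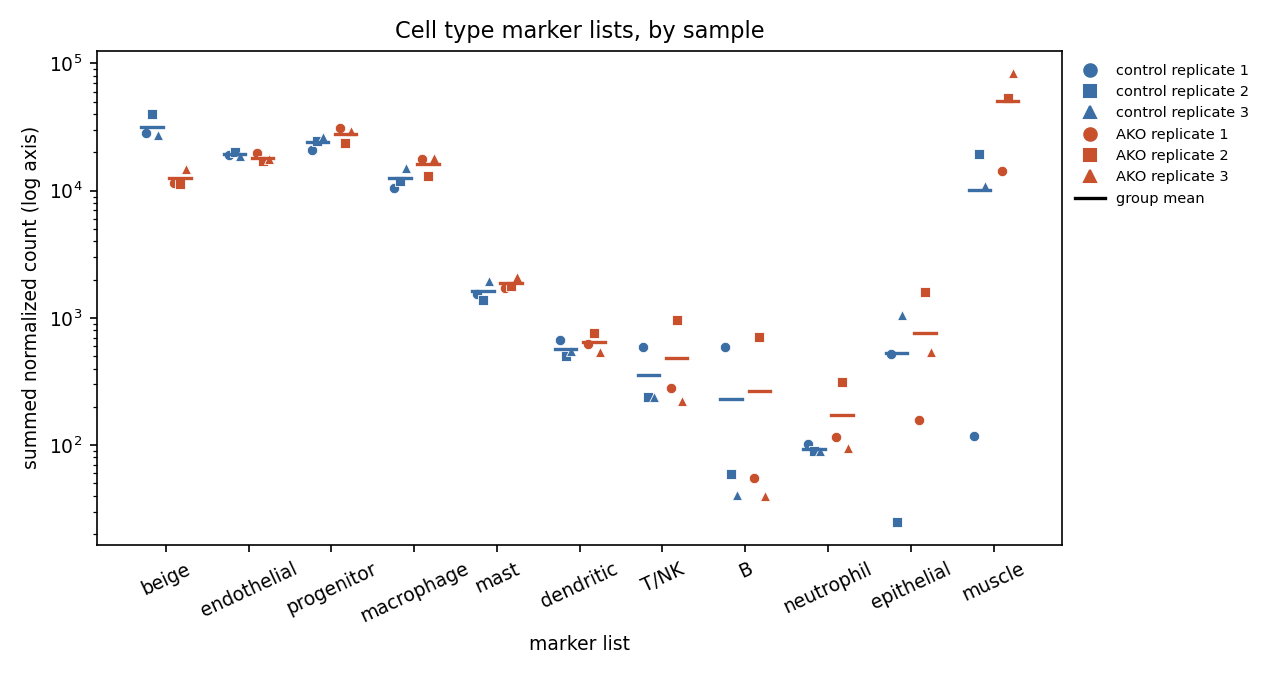
Summed normalized count (log axis) of 11 lists of cell type markers in each sample, with bars for group means. Control replicate 1 and AKO replicate 2 stand above the other samples for B cell and for T and NK cell markers, and control replicate 1 stands far below for muscle.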

How the data were processed

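Total RNA of iWAT was sequenced by the authors in 3 control and 3 AKO samples. STAR (genome GRCm38.p6) and featureCounts (GENCODE M25) were used by the authors for alignment and counting, and the deposited signal is the reads of a gene over the DESeq2 size factor of its sample. Columns with log2 fold changes, p-values and adjusted p-values from the authors were left out. Whether counting used strand is not given in the sources used here. Dividing by the smallest step of each library returned whole reads for 100% of values (tolerance 0.001).

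The normalized values were tested with limma (version 3.58.1, R 4.3.3) on log2(value + 1) with a variance trend. edgeR (4.0.16), DESeq2 (1.42.0) and limma-voom were run on recovered reads. These and limma were tested in their basic setting on simulated data, whose changes were larger than that of Il1rl2. The alternative settings and the fits without samples were not simulated. Gene positions and exon lengths are from GENCODE M21 (GRCm38), and promoter windows from RefSeq (GRCm38.p6), which held all 10 members. The members, pathway lists and marker lists (including mast cell, neutrophil, mesothelial and endothelial lists) were chosen with earlier results of these data known. Genes named beyond the members are Nrg4, every measured family gene, neighbors in the cluster, the 5 genes most correlated with Il1rl2, per pathway list the called genes, the 2 with the largest absolute log2 fold change and the 2 with the highest mean, and per marker list the 2 with the highest mean. Each sample is a pool of RNA from 2 mice, and p-values measure the spread between pools. A listed marker is not reported here and was left out of its list.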

Additional observations from a re-analysis of the deposited data

How the results depend on the processing

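No member was called in any of the alternatives, namely other pseudocounts and filters, edgeR, DESeq2, limma-voom, TMM factors, an adjusted p under 0.1, the replicate block, and fits without 1 or 2 libraries. The log2 fold change of Il1rl2 stayed above 0, from 0.44 (without control replicate 1) to 0.68 (without AKO replicate 2), with adjusted p-values from 0.0968 to 0.775. The count of all genes called was 6 with at least 10 normalized counts in every sample, 136 with DESeq2 and 11 at an adjusted p under 0.1, against 2. Leaving out each sample gave 0 to 3 called genes (3 without control replicate 2 and 0 otherwise). It gave 3 to 5 members with groups apart, where 21.9% to 28.9% of all genes tested were apart. The pairs with Il1rl2 apart were 4 to 5, and no share over all genes was taken for them in these fits. Without both libraries rich in B cell markers, an alternative chosen after seeing the data, 0 genes were called and 5 members were apart, as were 42.3% of all genes tested. DESeq2 called 1 pathway gene, and 0.839% of all genes. Leaving out each sample gave log2 fold changes of -0.026 to 0.12 for Il1rap and of -0.029 to 0.28 for Il1rl1, below 0 for Il1rap without control replicate 1 or AKO replicate 1 (-0.01) and for Il1rl1 without control replicate 2 or AKO replicate 3 (-0.0038). The cause of these differences was not tested.

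The labels do not say whether the replicate numbers pair the samples. Deviations of same-numbered samples from their group means correlated at 0.135, -0.351 and 0.240. With 3 samples a group these values constrain one another and cannot settle the question. With the replicate block, 2 genes were called and 0 members. Depth limits Il1b and Il1rn, which had at most 16 reads per sample.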

Other observations

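Over the 6 samples, the 5 genes whose log2 levels followed Il1rl2 most closely by Pearson's r were Pamr1, Ticam2, Apol9a, Cyba and Pvrl1, each at 0.995. The samples include both genotypes and all genes share these libraries, so these values describe the pattern only. Normalized counts of Pamr1 were 208, 244 and 273 in control against 382, 293 and 353 in AKO, with control replicate 1 lowest and AKO replicate 1 highest, as for Il1rl2. Among the other members, Il1r2 was closest to Il1rl2 (r = 0.921, place 192 of 13854 genes) and Il18r1 furthest of those tested (r = 0.352).

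Mast cell markers, led by Kit and Tpsb2, summed to 1395 to 1959 normalized counts in control and 1729 to 2094 in AKO. Neutrophil markers, led by Csf3r and S100a9, summed to 89.3 to 101 in control and 95.4 to 311 in AKO, where AKO replicate 2 was the highest. Endothelial markers, led by Cdh5 and Pecam1, summed to 18632 to 20184 in control and 17083 to 19664 in AKO. Mesothelial markers, led by Krt19 and Lrrn4, summed to 100.01 to 466 in control and 133 to 799 in AKO, and Krt19 is also made by epithelial cells.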
